A study of Mus musculus with 6 samples.

Results

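Proteasome subunit genes were examined in sorted cortical cells of mice, 4 days after a stroke. The proteasome is the large protease that degrades proteins marked with ubiquitin. Its barrel-shaped core is built of outer rings of alpha subunits and inner rings of beta subunits, and the beta rings carry the active sites. A regulatory particle docks on the core: a base with a ring of ATPases unfolds the substrate, and a lid removes the ubiquitin chain. Other activators can take the place of the regulatory particle. In neurons the proteasome controls the turnover of synaptic proteins, and ubiquitinated proteins are known to accumulate in neurons after ischemia.

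The members were the rows of the deposited table whose symbol began with Psma, Psmb, Psmc, Psmd or Psme and ended in a number, without Psmb8 and Psmb9. That gave 41 genes of 24419. They comprised 8 genes of the alpha ring, 7 of the standard beta ring, 2 other beta subunits, 6 base ATPases, 3 other base subunits, 8 lid subunits, 3 chaperones of base assembly and 4 activators. The 2 other beta subunits, named tissue-restricted in the figures, were Psmb10, which interferon induces, and Psmb11, of the thymus.

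All 6 libraries came from the peri-infarct cortex of male mice after a middle cerebral artery occlusion of 60 minutes, and every mouse carried the loxP-flanked Padi4 allele (Padi4flox/flox). The 3 libraries labelled control had this genotype alone, and the 3 labelled cKO had Slc17a7-cre and Slc32a1-cre in addition, Cre drivers of glutamatergic and GABAergic neurons. Treatment with pronase, a protease mixture, lasted 75 minutes for all 6 libraries. Cells had been sorted as positive for Thy1 and negative for ACSA2, CD31, CD45 and O4. The labels give no age and do not say whether a library pools animals, and there was no group without stroke. The question put to the data was whether subunit transcripts differ when neurons lack Padi4, which encodes an enzyme that converts arginine in proteins to citrulline.

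Libraries held 10094145 to 24056755 reads. Both libraries numbered 2 stood apart, with 15261 detected genes in control and 14042 in cKO against 16818 to 17891 in the other 4. Padi4 went against the labels: it had 0 reads in each library labelled control and 0, 3 and 12 reads in cKO replicates 1 to 3. Every direction below is therefore one between labels, and control and cKO stand for the libraries so labelled. The cells were labelled neurons, but 12 oligodendrocyte markers summed to 22431 to 28410 in control and 11548 to 34336 in cKO, above 12 pan-neuronal markers at 2658 to 3970 and 1468 to 7139, and 0 of the markers of either list was at 0 in any library. The sum over 12 mural cell and fibroblast markers ran from 590 to 4973 and from 296 to 2968, and that over 12 astrocyte markers from 876 to 1293 and from 1159 to 2412. Sums over 12 microglial and macrophage markers were at most 98.3, over 12 endothelial markers at most 192 and over 5 neutrophil markers at most 3.70. In bulk RNA, fewer cells of a type and less RNA per cell cannot be told apart, and subunit levels are those of the whole mixture.

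Transcripts of all tested subunits but Psme2 were detected in every library, and no subunit passed the test between groups. Values are deposited scaled CPM, depth-corrected read counts rescaled per library. Of the 41 genes, 39 passed the filter of at least 1 scaled CPM in at least 3 libraries. Limma called 0 of the 39 at an adjusted p under 0.05, where it called 0% of the 14796 genes tested, and 0 had an unadjusted p under 0.05, against 0.852% of all genes. In 0 of the 39 did the groups fail to overlap, against 4.7% of all genes. The log2 fold change of labelled cKO over labelled control, on the log2(value + 1) scale, ran from -0.77 to 0.84. It was above 0 in 22 members and below 0 in 17, with a median of 0.09, and above 0 in 48.0% of all genes, with a median of -0.02.

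Those counts turned on single libraries. Without cKO replicate 2, 34 members were higher in cKO and 5 lower, with a median of 0.26. Without control replicate 2 the counts were 14 and 25, with a median of -0.14. Without cKO replicate 3 they were 18 and 21, with a median of -0.11. Without both libraries numbered 2, 24 were higher and 15 lower, with a median of 0.06. On recovered whole reads, edgeR put 27 higher and 12 lower, and both edgeR and DESeq2 called 0 members.

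The test left room for differences of moderate size in every member and of 2-fold or more in 26. The median standard error (SE) was 0.40 among members and 0.54 among all genes. The 95% interval lay between -1 and 1, a 2-fold change either way, in 13 members and reached beyond it in 26. The narrowest was that of Psmd7, which encodes a lid subunit, from -0.52 to 0.80. The widest was that of Psme2, from -2.77 to 1.28.

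**Figure D1:**
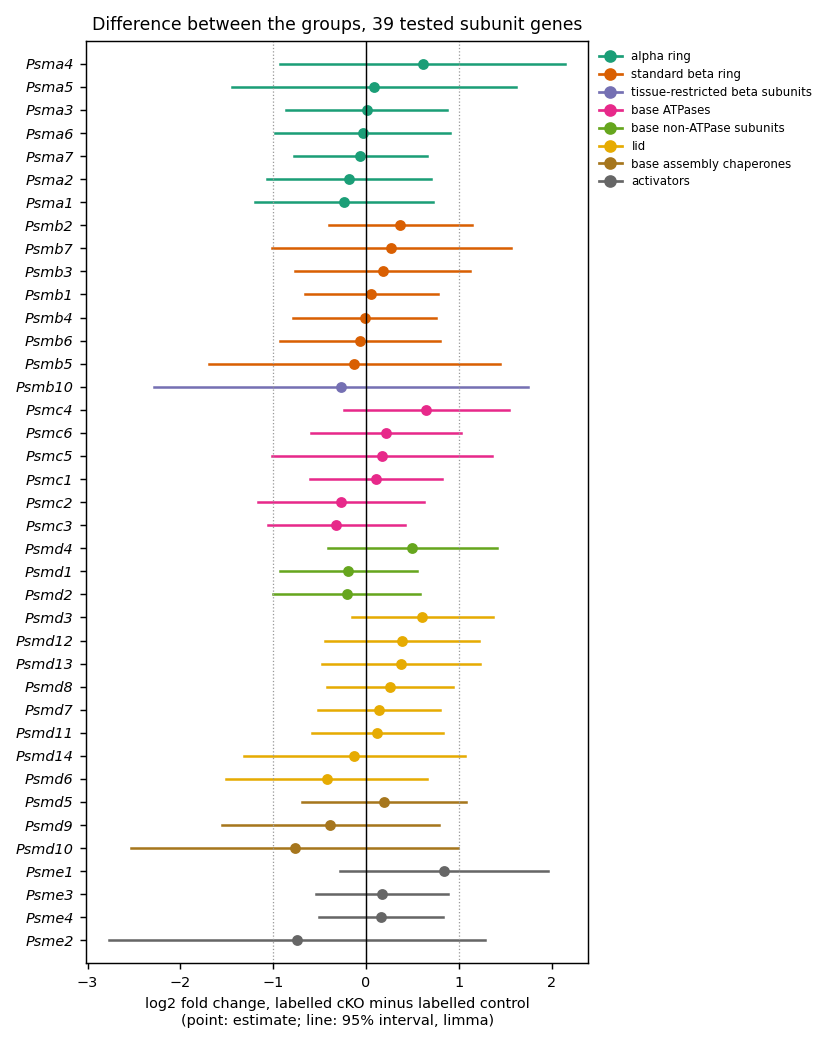
Log2 fold change of labelled cKO over labelled control for the 39 tested subunit genes (x axis; points are estimates, lines 95% intervals from limma), sorted within structural class by colour; dotted lines mark -1 and 1. Every interval holds 0, and those of the low genes Psmb10, Psme2 and Psmd10 are among the widest.

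Alpha subunits form the outer rings, whose gate admits the unfolded substrate. Of 7 tested alpha genes, 3 were above and 4 below 0, with a median log2 fold change of -0.04. Psma1 had the lowest, with 53.9, 39.1 and 48.9 in the control libraries, in order of replicate number, and 49.6, 21.2 and 58.5 in the cKO libraries. The group means were 47.3 ± 7.56 and 43.1 ± 19.5 (SD, n = 3 each), a log2 fold change of -0.24 (SE 0.43), and the groups overlapped, with cKO replicates 2 and 3 below and above all others. Psma4 had the highest, with 71.9, 8.68 and 59.8 in control and 64.1, 33.5 and 66.8 in cKO, or 46.8 ± 33.6 against 54.8 ± 18.5 (log2 fold change 0.61, SE 0.69). Here control replicate 2 was the low library, and without it the log2 fold change was -0.32. Psma5 was low in both libraries numbered 2, at 13.1 and 8.48 against 31.6 to 49.6 elsewhere. Psma7 held its level, from 50.5 to 76.6 with no low library. Psma2, Psma3 and Psma6 lay between 27.4 and 75.8 in all libraries, each lowest in cKO replicate 2. Psma8, the alpha subunit of testis, did not pass the filter: it had 22 reads in cKO replicate 1 and 0 in the other 5 libraries, where 3 reads, the limit that a count of 0 allows, would be 0.126 to 0.303 scaled CPM.

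The standard beta ring holds the active sites in Psmb5 (chymotrypsin-like), Psmb6 (caspase-like) and Psmb7 (trypsin-like), and the other 4 subunits are structural. Of the 7 genes 4 were above and 3 below 0, with a median of 0.06. Psmb5 was at 13.7, 7.58 and 19.9 in control and 14.6, 3.74 and 26.5 in cKO, or 13.7 ± 6.16 against 14.9 ± 11.4 (SD, n = 3 each). Its log2 fold change of -0.13 (SE 0.71) was opposite in sign to the difference in means, and the values of cKO spanned those of control. Psmb6 was steadier, at 35.6, 25.5 and 38.9 against 36.5, 23.7 and 35.3, with a log2 fold change of -0.07 (SE 0.39). Psmb7 was at 52.6, 11.4 and 52.7 against 43.1, 26.6 and 50.6, with a log2 fold change of 0.27 (SE 0.58). For all 3 catalytic genes the libraries numbered 2 were the lowest in both groups, and without control replicate 2 the value for Psmb7 was -0.43. The exons of Nek6, on the opposite strand, cover 34.9% of the exon length of Psmb7, and whether counting used strand is not stated by the labels. Nek6 was at 20.9 to 33.1 in control and 17.7 to 37.1 in cKO, and had no low value in control replicate 2, where it was at 31.3. Psmb2 had the highest log2 fold change of the ring, at 50.5, 32.1 and 58.2 against 57.0, 64.8 and 56.1 (0.37, SE 0.35), with control replicate 2 the low library. Psmb1, Psmb3 and Psmb4 ranged from 21.2 to 88.1 over the libraries, with log2 fold changes from -0.02 to 0.18.

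Nrf1, encoded by Nfe2l1, raises subunit transcription when proteasome activity is short. It binds the antioxidant response element, whose core letters are TGACNNNGC, and the promoters of the catalytic genes that hold them are shown for that reason. Among 34 members with a promoter in the RefSeq table (GRCm38.p6), 5 (14.7%) held these letters on either strand in the 250 bases before a start, against 11.5% of 27025 genes. The 5 were Psmb5, Psmb6, Psmc6, Psmd9 and Psmd12. The letters CCAAT were in 38.2% against 37.5%, GAAANNGAA, from the interferon response element, in 8.82% against 8.18%, and TTCNNNGAA, from the STAT site, in 0% against 8.13%. Psma8, Psmb1, Psmb2, Psmb7, Psmc3, Psmd3 and Psmd7 had no promoter in the RefSeq table and were not searched. A match describes letters in the window only. The windows of Psmb5 (chr14:54618023-54618053, minus strand) and Psmb6 (chr11:70525337-70525356, plus strand), whose matches begin 47 and 9 bases before the start, read as follows, 5′ to 3′, with the match in capitals.
Psmb5: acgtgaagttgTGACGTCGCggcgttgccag
Psmb6: actaaagagagTGACGGAGC
Both genes were lowest in the libraries numbered 2. So were Psmb7, whose promoter was not searched, and Psma1, whose promoter lacked these letters. A link between the letters and the levels was not tested.

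Psmb10 encodes the inducible trypsin-like subunit that replaces Psmb7 in the immunoproteasome, a form induced by interferon that favours peptides for MHC class I. It was at 6.18, 2.21 and 8.50 in control and 5.61, 0.303 and 13.5 in cKO. Its lowest value rested on 3 reads and its highest on 320, both in cKO, so cKO enclosed control. The log2 fold change was -0.27 (SE 0.91), with an interval from -2.29 to 1.75. Without cKO replicate 2 it was 0.70. Per exon length, Psmb10 made up 9.41%, 14.6% and 12.5% of the sum of Psmb10 and Psmb7 in control and 10.3%, 0.999% and 19.1% in cKO. The partners Psmb8 and Psmb9, which replace Psmb5 and Psmb6, were low. Psmb8 was at 3.04, 0.736 and 6.72 in control and 1.39, 0 and 0.884 in cKO (log2 fold change -1.20, SE 0.77, adjusted p = 0.9996 in limma), and made up 10.9%, 5.09% and 15.7% of its pair with Psmb5 in control and 5.004%, 0% and 1.81% in cKO. Levels of Psmb8 overlapped between groups; its shares did not, but the lowest in control and the highest in cKO lay side by side, on 10 and 29 reads of Psmb8. Psmb9 was at 0.553, 3.97 and 0.0556 in control and 0.768, 0 and 0.0842 in cKO, and failed the filter. The interferon-induced gene Ifit1 was at 31.4, 30.7 and 38.3 in control and 10.3, 8.08 and 11.3 in cKO, with groups that did not overlap, unlike those of Psmb10 (log2 fold change of Ifit1 -1.67, SE 0.43, adjusted p = 0.9996 in limma). Psmb11, the beta subunit of the thymus, had 0 to 23 reads and was not tested.

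Base ATPases pull the substrate into the core. Of the 6 genes 4 were above and 2 below 0, with a median of 0.14. Psmc4 had the highest log2 fold change, with 64.4, 28.0 and 71.6 in control and 68.2, 83.5 and 90.2 in cKO, or 54.7 ± 23.4 against 80.6 ± 11.3 (0.65, SE 0.40, unadjusted p = 0.134, adjusted p = 0.9996 in limma). Among the cKO libraries only replicate 1 lay among control values, and without control replicate 2 the estimate was 0.23. Psmc3 had the lowest, with 73.3, 63.3 and 72.1 against 61.2, 39.9 and 69.7 (-0.32, SE 0.33). It is one of 12 members whose direction was kept when each library was left out in turn. Psmc1 was the steadiest of the ring, from 46.9 to 67.3 with a coefficient of variation (CV) of 13.7% over the 6 libraries. Psmc5 was low in control replicate 2, at 13.1 against 21.9 to 51.7. Psmc2 and Psmc6 had log2 fold changes of -0.27 and 0.21.

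Among the other base subunits, Psmd1 and Psmd2 are scaffolds and Psmd4 is a ubiquitin receptor, with 1 above and 2 below 0. Psmd2, which binds shuttle proteins carrying ubiquitinated substrates, was at 153, 102 and 154 in control and 136, 74.1 and 152 in cKO (log2 fold change -0.21, SE 0.36), lowest in both libraries numbered 2. Psmd1 followed the same order, at 110 and 99.0 in those and 147 to 185 in the others. Psmd4 did not: it was at 46.8, 26.8 and 51.4 against 44.1, 89.0 and 47.3 (0.50, SE 0.41), with control replicate 2 lowest and cKO replicate 2 highest. Without both libraries its log2 fold change was -0.10.

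The lid had 6 of 8 genes above 0, with a median of 0.20. Psmd14 encodes the lid protease that cuts off the ubiquitin chain. It was at 93.5, 41.8 and 58.2 in control and 81.1, 22.7 and 93.1 in cKO, or 64.5 ± 26.4 against 65.6 ± 37.6 (SD, n = 3 each; log2 fold change -0.13, SE 0.54), and the groups overlapped throughout. Psmd3 had the smallest unadjusted p of any member (0.107, adjusted p = 0.9996 in limma), with 80.2, 59.4 and 89.7 against 81.3, 158 and 119 (0.61, SE 0.34). Its cKO replicates 2 and 3 were the highest libraries, and cKO replicate 1 lay between control replicates 1 and 3. Psmd6 had the lowest log2 fold change, with 70.7, 50.02 and 61.8 against 72.7, 19.3 and 62.3 (-0.43, SE 0.49). A single library, cKO replicate 2, set that value, and without it the estimate was 0.16. In that library Psmd3 lay 0.88 above its own median over the 6 libraries on the log2(value + 1) scale, and Psmd6 at -1.64 from its own. Psmd7 varied least of all 39 members, from 64.3 to 80.3, with a CV of 10.1%. Psmd8, Psmd11, Psmd12 and Psmd13 had log2 fold changes from 0.12 to 0.39 and levels from 23.1 to 91.8. A730017L22Rik, whose transcript matches 52.8% of that of Psmd11 at 97.9% identity, was at 5.47 to 19.2.

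Assembly chaperones hold the ATPases while the base forms and are absent from the finished particle. Psmd10, also known as gankyrin, had the lowest log2 fold change of all members, with 11.6, 9.34 and 6.94 in control and 9.74, 0.707 and 10.4 in cKO (-0.77, SE 0.79). The value in cKO replicate 2 rested on 7 reads, the other cKO libraries lay within the control range, and without that library the estimate was 0.13. With a pseudocount of 0.1 Psme2 was lower, at -1.75 against -1.07 for Psmd10. Psmd5 was at 34.4, 36.0 and 27.2 against 24.6, 50.4 and 41.2 (0.20, SE 0.40), with cKO replicate 2 the highest library. Psmd9 was at 13.3 to 26.6 in control and 8.28 to 21.5 in cKO (-0.39, SE 0.53).

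Activators open the gate of the core without ATP. Psme1 and Psme2 encode the alpha and beta subunits of PA28, a mixed ring in the cytoplasm that interferon induces. Psme1 had the highest log2 fold change of all members, with 24.5, 8.24 and 19.2 in control and 32.2, 36.3 and 21.1 in cKO, or 17.3 ± 8.30 against 29.9 ± 7.84 (SD, n = 3 each; 0.84, SE 0.51, unadjusted p = 0.127, adjusted p = 0.9996 in limma). Control replicate 1 lay above cKO replicate 3, so the groups overlapped by that pair. The estimate stayed above 0 when each library was left out, from 0.41 to 1.14, the lower value being that without control replicate 2. Psme2 was at 10.6, 6.03 and 3.72 against 9.79, 0 and 6.61 (-0.74, SE 0.91), and 0.32 without cKO replicate 2. In cKO replicate 2 Psme1 had its highest value, on 359 reads, and Psme2 had 0 reads. Per exon length, Psme1 exceeded Psme2 by 1.20 to 4.53 times in the other 5 libraries and by at least 105-fold in that one, taking 3 reads as the floor for Psme2. Psme2b, a gene on chromosome 11 whose transcript matches 82.5% of that of Psme2 at 99.4% identity, had 0 reads there too and 0.222 to 4.85 elsewhere. In the libraries where reads were counted, they could be split between the copies. Psme1 and Psme2 lie close together on chromosome 14 (mm10), Psme1 at 55578123 to 55581529 (plus strand) and Psme2 at 55587441 to 55591113 (minus strand).

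Psme3 encodes PA28 gamma, the nuclear activator, and Psme4 encodes PA200, also nuclear. Psme3 was at 52.0, 49.4 and 51.7 against 52.5, 49.9 and 73.0 (0.17, SE 0.32), where 5 libraries agreed within 49.4 to 52.5 and cKO replicate 3 was higher. Psme4 was at 198, 167 and 156 against 194, 247 and 152 (0.16, SE 0.30), highest in cKO replicate 2 and otherwise overlapping.

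**Figure D2:**
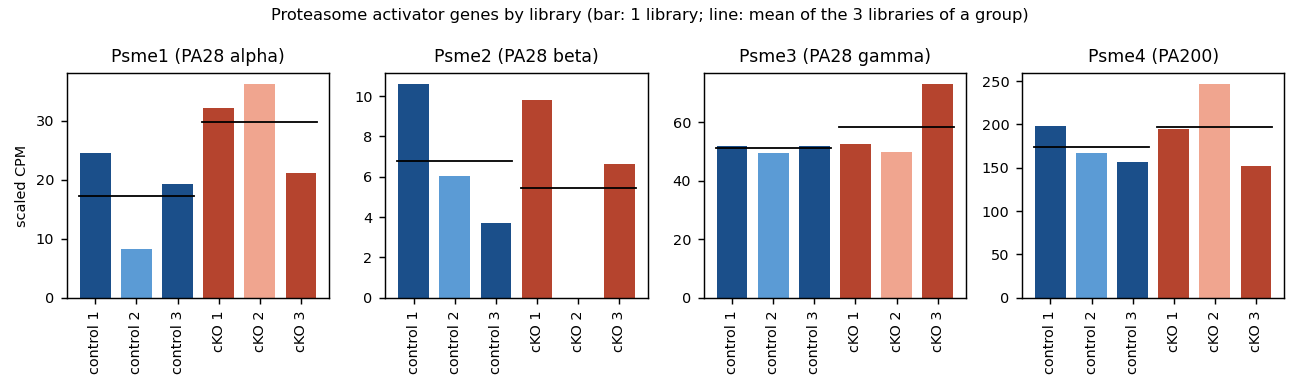
Level of the 4 activator genes in each library (y axis, scaled CPM, from 0; bars are single libraries, lines the mean of 3 libraries of a group, lighter bars the libraries numbered 2). Psme1 and Psme4 were highest in cKO replicate 2, where Psme2 was at 0.

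Across libraries, the subunits moved mainly with the libraries numbered 2. Of the 39 tested members 35 (89.7%) had their lowest value in one of those libraries, against 53.1% of all tested genes. In 16 members (41.0%) both were below all the other 4, against 18.8% of all genes. In 0 members were both above the rest, against 11.7% of all genes. These 16 were Psma1, Psma3, Psma4, Psma5, Psmb1, Psmb5, Psmb6, Psmb7, Psmb10, Psmc2, Psmd1, Psmd2, Psmd6, Psmd9, Psmd14 and Psme3, so they came from every class. The pair of libraries was picked for its low number of detected genes, so these shares are a description.

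The libraries differed in kind as well. In control replicate 2 the median deviation of members from their own median over the 6 libraries was -0.46 on the log2(value + 1) scale, and the highest deviation there was 0.03. In cKO replicate 2 the median was -0.32, but deviations ran from -2.87 to 0.90. The median deviation of all tested genes was -0.02 and -0.08 in those libraries. The SD of the deviations there was 0.59 and 0.93 among members. Among all tested genes it was wider, at 0.85 and 1.17, so a wide spread was not particular to the subunits. In the other 4, the members' medians lay between 0.04 and 0.11. More than 1 log2 unit below their median were 7 members in control replicate 2 (Psma4, Psma5, Psmb7, Psmb10, Psmc4, Psmc5 and Psme1) and 10 in cKO replicate 2 (Psma1, Psma5, Psma6, Psmb5, Psmb10, Psmc2, Psmd6, Psmd10, Psmd14 and Psme2). Psma5 and Psmb10 were in both sets. The share of all genes that far below their median was not counted. Summed over all 41 genes, subunits made up 0.249%, 0.173% and 0.230% of the column total in control and 0.240%, 0.196% and 0.253% in cKO.

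With each read taken as a separate molecule, counting error was small beside these differences for all but the lowest genes. Psmd14 had its fewest reads, 225, in cKO replicate 2, where counting on that basis gives a CV of 6.67%. Its CV over the 6 libraries was 44.7%. Read counts cannot bound the error of sampling where several reads stem from the same molecule, and that error was not tested. In cKO replicate 2, 14042 genes were detected on 10094145 reads, against 17891 on 10638387 in control replicate 1. The median CV was 28.7% among members and 43.4% among all tested genes. Over the 4 libraries not numbered 2 it was 15.5% and 30.8%, and 34 of the 39 members were then under 25%, against 14 over all 6. In the libraries numbered 2, mural cell and fibroblast markers summed to 590 and 296, but 800 in control replicate 3 lay close to them, and pan-neuronal markers summed to 3970 and 4216, between the 1468 and 7139 of cKO replicates 1 and 3. Endothelial markers had their lowest sums there, 85.8 and 127.7 against 128.9 to 192 elsewhere. Astrocyte markers had their highest sum, 2412, in cKO replicate 2, against 876 to 1343 in the other 5 libraries, control replicate 2 at 1293 among them. Oligodendrocyte markers, at 22431 and 21306, and microglial and macrophage markers, at 93.9 and 82.2, lay within the range of the other 4. The part of cell mixture in the subunit levels was not tested.

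**Figure D3:**
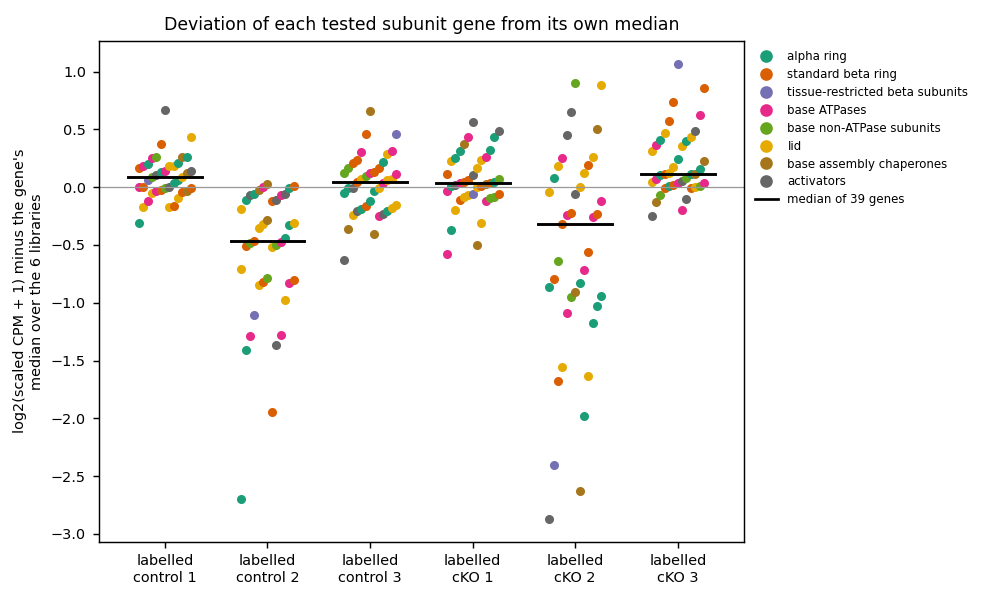
Deviation of each of the 39 tested members from its own median over the 6 libraries (y axis, log2(scaled CPM + 1)), by library (x axis); points are genes coloured by class, black lines the median of 39. Control replicate 2 lies below 0 for nearly all members, and cKO replicate 2 spreads from -2.87 to 0.90.

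**Figure D4:**
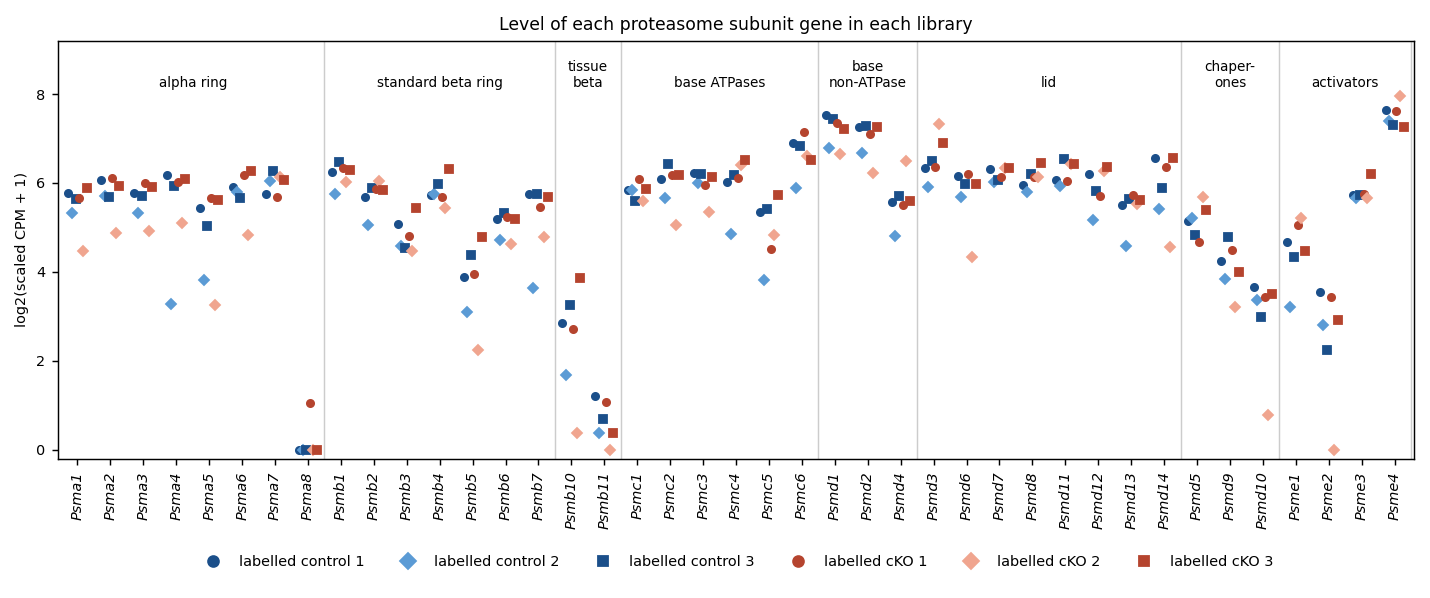
Level of all 41 members in each library (y axis, log2(scaled CPM + 1)), grouped by structural class (x axis); shape and colour mark the library, light diamonds those numbered 2. Libraries of both labels intermix in every class, and diamonds are often the lowest points.

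Levels were unequal within the particle. Per kilobase of exon, averaged over the 6 libraries, scaled CPM ran from 61.8 for Psmb2 to 16.0 for Psmb5 in the standard beta ring, and from 53.8 for Psma7 to 17.3 for Psma3 among the 7 tested alpha genes, although each such subunit is present in equal number in the core. Base ATPases were closer together, from 24.7 for Psmc5 to 47.0 for Psmc4, and lid genes ran from 21.9 for Psmd13 to 46.2 for Psmd7. The 3 chaperones were lower, at 5.53 to 8.10, as were Psme2 at 6.28 and Psmb10 at 4.61. The ranges over libraries of neighbours in that order overlapped for all 41 genes. Exon length was the union of annotated exons, so a long rare isoform lowers the value. Reads shared with pseudogenes may lower or raise it, since their handling is not given. For 11 members 21 near-identical copies were found among annotated transcripts, 6 of them of Psmb3, and only Psme2b and A730017L22Rik were rows of the table.

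**Figure D5:**
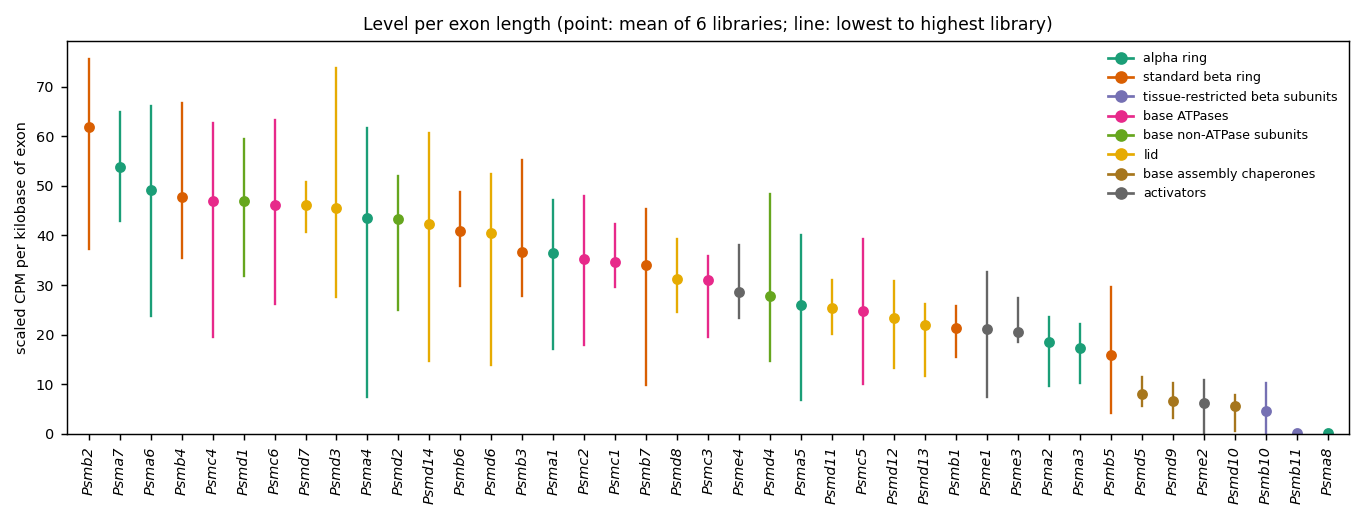
Level per kilobase of exon for all 41 members in descending order (y axis, scaled CPM per kilobase; points are the mean of 6 libraries, lines the lowest to the highest library, colours the class). Core and regulatory particle genes mix over most of the order, and the chaperones, Psme2, Psmb10, Psmb11 and Psma8 have the lowest ranks.

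No other gene of the system passed the test. Of 40 listed, 39 were matched in the table, 2 of them by an older symbol, and 38 were tested: assembly factors, docked deubiquitinases, shuttle proteins, ubiquitin genes and regulators. Limma called 0 of them, 0 had an unadjusted p under 0.05, and in 0 did the groups fail to overlap. The shares over all tested genes were 0%, 0.852% and 4.7%. Log2 fold changes of the 38 were above 0 in 10 and below 0 in 28, with a median of -0.11. The counts were 20 and 18 without cKO replicate 2 and 19 and 19 without both libraries numbered 2. Nfe2l1, which encodes Nrf1, was at 134, 99.9 and 135 in control and 103, 74.5 and 191 in cKO (-0.10, SE 0.38), with cKO enclosing control. Nfe2l2, which encodes the related factor Nrf2, had the smallest unadjusted p of the list (0.123, adjusted p = 0.9996 in limma). It was at 70.7, 30.9 and 80.2 against 53.7, 5.86 and 38.8 (-1.21, SE 0.72), and -0.29 to -1.79 with each library left out. The core assembly chaperone Psmg1 was at 8.66, 14.9 and 10.8 against 9.60, 0 and 10.6 (-1.29, SE 0.91), with values of -0.14 without cKO replicate 2 and 0.05 without both libraries numbered 2. Nfya, a subunit of the CCAAT-binding factor, was at 40.0, 19.3 and 30.0 against 31.9, 13.4 and 14.7 (-0.60, SE 0.49).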

How the data were processed

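The deposited table holds scaled read counts of 24419 genes in 6 libraries of sorted cells, and per the submitters' processing notes it was made by the authors with Trimmomatic, HISAT2, featureCounts and edgeR on mm10, with no versions. Annotation, strand and handling of multiply mapped reads: not given in the sources used here. The deposited values are a depth-scaled signal (CPM rescaled per library, column totals 961962 to 1027958). All values were whole multiples of 1 read's value within 0.001, so whole reads were recovered and 3 reads taken as the floor. Floors cover counting error only, and reads may be copies of fewer molecules. Unscaled CPM had been assumed when the test was chosen; it was kept.

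Groups were compared with limma 3.58.1 (trend option, R 4.3.3) on log2(value + 1) for genes of at least 1 in at least 3 libraries, with Benjamini-Hochberg adjustment over all 14796 genes. It was tested on simulated data with changes larger than the estimate of any member, so that run does not address smaller differences. P-values measure the spread between libraries, which may be technical, since the labels do not name animals. Members, lists and tests were chosen with earlier results of these data known. Values in every library are given for the catalytic beta subunits, activators, Psmd14, the lowest and highest fold change of each class, the 4 other pathway genes with the smallest p, and Nfe2l1, Psmb8 and Psmb9. Genes named beyond these were chosen after their values were seen. Positions and exon lengths are from GENCODE vM21 (mm10). Copies were blastn matches of at least 90% identity over at least 50% of the transcript. As alternatives, the pseudocount was set to 0.1 or 5, the filter to none or 5, scaling to median-of-ratios factors, and a replicate block was fitted. The others were edgeR 4.0.16 and DESeq2 1.42.0 on recovered reads, and leaving out libraries.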

Additional observations from a re-analysis of the deposited data

How the results depend on the processing

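Members called stayed at 0 under all 15 alternatives, as did other pathway genes called. Over all genes limma called 0 under each of its alternatives, with 126 at an unadjusted p under 0.05 in the test as reported; edgeR called 0 and DESeq2 called 1, Ifit3. Members lower in cKO numbered 17, and 5 to 25 with 1 library left out, and the median log2 fold change of members, 0.09, then ran from -0.14 to 0.26. Under the 8 processing alternatives 33 of 39 members kept their direction, and 12 did so without each library in turn. The causes of the reversals were not tested. With edgeR on recovered reads 34 of 39 kept it, and the log2 fold changes of Psma6 (0.090), Psmb4 (0.028), Psmb5 (0.12), Psmb10 (0.20) and Psmd14 (0.025) reversed. With DESeq2 35 kept it, and those of Psma6 (0.064), Psmb4 (0.0038), Psmb5 (0.086) and Psmb10 (0.16) reversed. With median-of-ratios factors 38 kept it, and that of Psma3 (-0.011) reversed. Sizes for low genes moved with the pseudocount. With 0.1 and 5 the log2 fold change was -0.66 and -0.022 for Psmb10, and -1.75 and -0.27 for Psme2. It was -1.07 and -0.38 for Psmd10, and -2.31 and -0.51 for Psmb8, outside the members. Without both libraries numbered 2, 21 of 39 members kept their direction. Reversed values were 0.14 for Psma2, 0.43 for Psma6, -0.052 for Psmb1, 0.14 for Psmb4, -0.26 for Psmc5, -0.030 for Psmc6, -0.071 for Psmd11, 0.24 for Psmb5, -0.17 for Psmb7, 0.24 for Psmb10, 0.29 for Psme2, -0.037 for Psme4, 0.23 for Psmd14, 0.068 for Psma1, -0.0035 for Psma4, -0.10 for Psmd4, 0.026 for Psmd6, 0.14 for Psmd10 and, outside the members, 0.053 for Psmg1 and 0.060 for Nfe2l1. Among the genes given in every library, those that reversed with 1 library left out ran from -0.69 to 0.58 for Psmb5, -0.24 to 0.13 for Psmb6, -0.43 to 0.62 for Psmb7, -1.04 to 0.70 for Psmb10, -1.40 to 0.32 for Psme2, -0.012 to 0.34 for Psme4, -0.49 to 0.50 for Psmd14, -0.51 to 0.20 for Psma1, -0.32 to 1.14 for Psma4, -0.41 to 0.11 for Psmd2, -0.77 to 0.16 for Psmd6, -1.24 to 0.13 for Psmd10, -0.020 to 0.48 for Psmd5 and -0.47 to 0.20 for Nfe2l1. Replicate numbers were not taken to pair the libraries: deviations from group means correlated across genes at 0.49, 0.30 and 0.03 for numbers 1, 2 and 3, although every library correlated best with its own number. With the replicate block, members called were 0. The block leaves log2 fold changes as they were in a balanced design, so the 17 members lower in cKO and the median of 0.09 could not move. Over all genes, 110 higher and 197 lower in cKO had an unadjusted p under 0.05 in limma, against 50 and 76 in the test as reported. Among members 0 did so, and among pathway genes 2, both lower in cKO, against 0 in the test as reported. Psmb10, Psmd10 and Psme2 had 3, 7 and 0 reads in cKO replicate 2, against 67, 126 and 115 in control replicate 1, which held 10638387 reads against 10094145.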
